A study of Rattus norvegicus with 11 samples.

Results

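The 10 genes described here mark the stem cells of the intestinal crypt or are direct targets and regulators of Wnt signalling: Lgr5, Olfm4, Ascl2, Smoc2, Axin2, Rnf43, Sox9, Msi1, Lrig1 and Clu. They were chosen by gene symbol, and 10 of 10 were found among 24481 genes with read counts. The files place them on chromosome 7 (Lgr5), 15 (Olfm4), 1 (Ascl2), 1 (Smoc2), 10 (Axin2), 10 (Sox9), 12 (Msi1), 4 (Lrig1), 10 (Rnf43) and 15 (Clu), on build mRatBN7.2. Total RNA of rat ileum was sequenced in 3 control, 4 SAP and 4 JZL184 libraries. SAP, severe acute pancreatitis, had been induced in male SD rats of 6 to 8 weeks by injecting 3% sodium taurocholate into the pancreatic duct, and rats were allocated to groups 24 h after surgery. The JZL184 rats, which also had SAP, then received 10 mg/kg JZL184, an inhibitor of monoacylglycerol lipase (MAGL), into the peritoneum, while control and SAP rats received the same volume of saline, ethanol and Tween-80 vehicle. Rats were killed 24 h after that injection. The sources used here do not say whether control rats had a sham operation. The labels themselves speak of a control plasmid and, in the titles of the SAP libraries, of oil.

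In the small intestine, crypt base columnar stem cells divide at the bottom of each crypt, between Paneth cells, and supply all epithelial cell types of the villus. Wnt ligands and R-spondins from the surrounding tissue keep beta-catenin stable in these cells, where it works with TCF/LEF factors to switch on target genes, several of which feed back to restrain the signal. After injury, crypts can be rebuilt from cells that lose or regain the stem cell programme, and Clu marks one such regenerating state.

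The libraries held 26341299 to 33847135 reads assigned to genes. The counts of control libraries 1 and 2 differed with a chi-square of 2.81 for each gene, against 77.5 to 563 for all other pairs of libraries within a group. This is far closer than any other pair, and they were therefore counted as 1 sample, called control 1-2, which leaves 2 control samples. The label names intestinal epithelial cells, but genes of smooth muscle were abundant too (summed FPKM of 6 markers between 367 and 2115), next to the epithelial marker Epcam (FPKM between 2220 and 3814), so that the libraries hold RNA of the gut wall. In such bulk tissue, fewer cells of a type and less RNA per cell cannot be told apart.

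Several libraries stood apart in ways that touch the results. JZL184 library 3 had an FPKM of 79.9 for Fabp6, the ileal bile acid-binding protein, against 409.7 to 21819 elsewhere, and of 478 for Car1, a carbonic anhydrase abundant in the colon, against at most 24.5. It was also the only library with Hoxd10, a homeobox gene of posterior segments, above an FPKM of 0.07 (4.49), and it had 54.7 for the Paneth cell defensin Defa24, against 2261 to 10330. JZL184 library 1 had an FPKM of 410 for Fabp6 and the highest value of Gata4, a factor of the proximal small intestine (7.73, against 3.65 in SAP 2 and at most 0.34 in the others). SAP library 2 had 0.25 for the Y-linked gene Eif2s3y, against 19.6 to 57.0, and 18.7 for the gene that RefSeq names Xist, against at most 0.12, although the rats are described as male. These genes were chosen after their values were seen, and values without these libraries are given where they differ most.

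Expressed per length and library size as FPKM, the 10 genes covered a wide range. Olfm4 and Clu were the most abundant, with group means of 29.0 to 124 and 43.3 to 70.4. Smoc2 followed with means of 6.47 to 14.4, and Lrig1, Sox9 and Axin2 had means between 1.74 and 9.47. Ascl2, Rnf43 and Msi1 had means between 0.49 and 2.06. Lgr5 was the least abundant gene, with means of 0.0925 to 0.345.

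**Figure D1:**
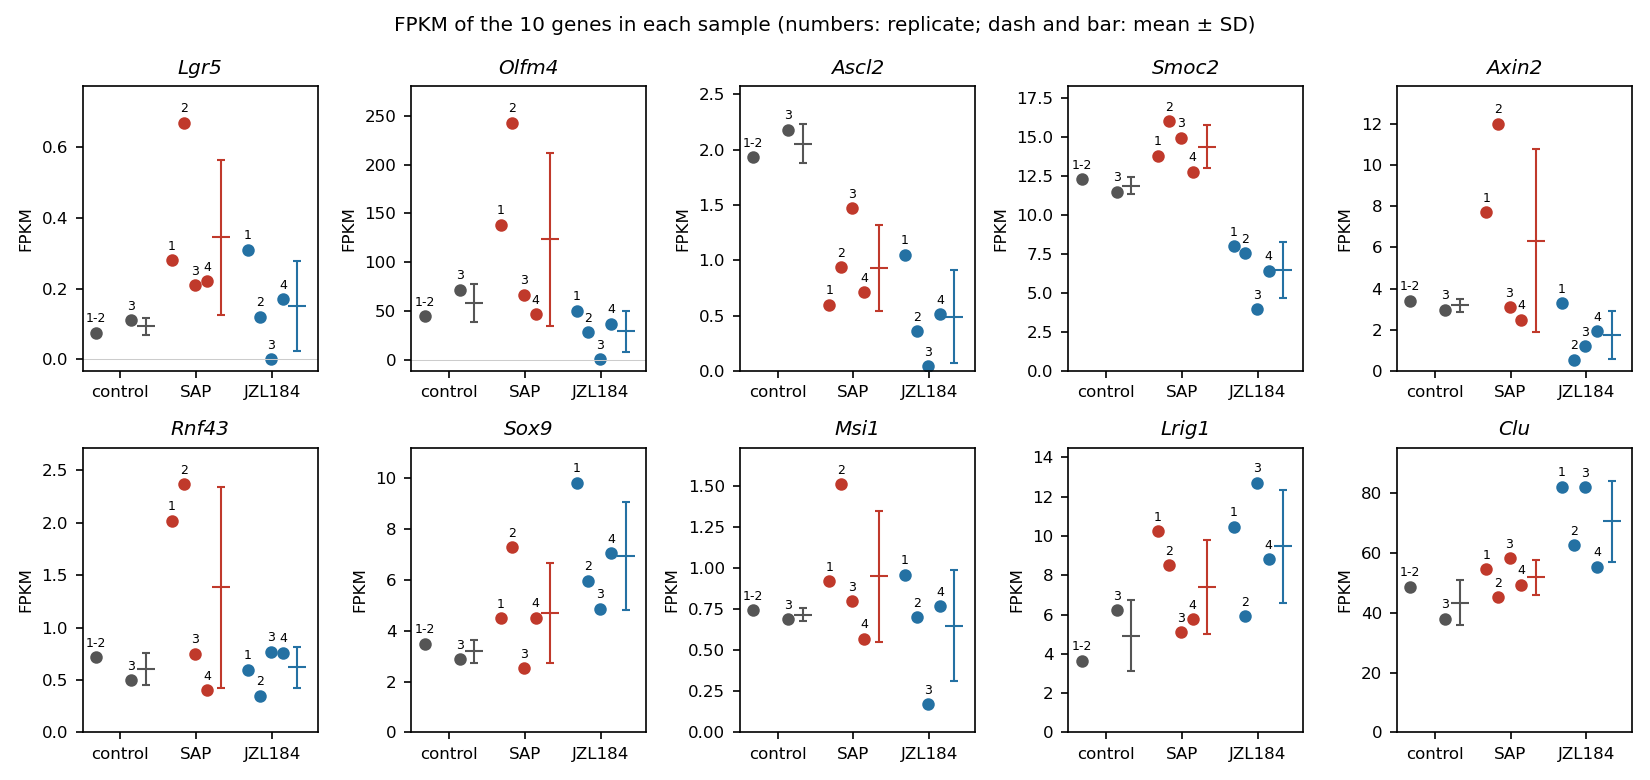
FPKM of each of the 10 genes (linear y axis, one panel per gene) in the control, SAP and JZL184 samples; points are samples, numbered by replicate, and the dash and bar give the mean and SD (n = 2, 4 and 4). For Olfm4, Axin2 and Rnf43, SAP samples 1 and 2 lie above every control and JZL184 sample, whereas SAP samples 3 and 4 lie among or near them.

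Lgr5, the R-spondin receptor that defines crypt base columnar cells, rested on few reads. Its FPKM was 0.075 and 0.11 in the control samples, 0.28, 0.67, 0.21 and 0.22 in SAP 1 to 4, and 0.31, 0.12, 0 and 0.17 in JZL184 1 to 4. All SAP samples were above both control samples, and the JZL184 samples spread across both other groups. The read counts were 3, 17 and 15 in the control libraries, 28 to 96 in SAP, and 47, 16, 0 and 22 in JZL184. The nearly identical control libraries 1 and 2 thus differed for this gene, and the 0 in JZL184 library 3 allows up to 0.109 CPM (3 reads), for counting error only. The SAP mean was 0.345 ± 0.219 (SD, n = 4) and the control mean 0.0925 ± 0.0247 (SD, n = 2).

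Olfm4, a secreted glycoprotein of crypt base cells, had an FPKM of 44.6 and 71.8 in control, 138, 243, 66.4 and 46.6 in SAP, and 50.4, 28.0, 0.55 and 37.0 in JZL184. SAP samples 1 and 2 were far above all others, SAP samples 3 and 4 lay within the control range, and JZL184 sample 3 was nearly without the transcript. Within the SAP group the highest value was 5.22 times the lowest.

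Ascl2, a transcription factor and Wnt target that maintains the stem cell state, showed another order. Its FPKM was 1.93 and 2.18 in control, 0.60, 0.94, 1.47 and 0.71 in SAP, and 1.05, 0.36, 0.04 and 0.51 in JZL184. Both control samples were above every other sample, while SAP and JZL184 overlapped. It was the only one of the 10 genes whose SAP samples all lay below the control samples.

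Smoc2, a matricellular protein of the stem cell signature that fibroblasts also make, was lower in JZL184 than in both other groups. Its FPKM was 12.3 and 11.5 in control, 13.8, 15.98, 14.9 and 12.8 in SAP, and 7.98, 7.53, 3.96 and 6.42 in JZL184. The samples of the groups did not overlap in any comparison: SAP was highest, control intermediate and JZL184 lowest. For SAP and control this held only with control libraries 1 and 2 averaged. Control library 1 alone was at 12.79, above SAP 4 at 12.76. Msi1, an RNA-binding protein of stem and progenitor cells, had means of 0.718 in control (SD 0.0389, n = 2), 0.95 in SAP (SD 0.401, n = 4) and 0.65 in JZL184 (SD 0.338, n = 4). The Msi1 values of all groups overlapped, with the highest in SAP 2 (1.51) and the lowest in JZL184 3 (0.17).

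Axin2, a scaffold of the beta-catenin destruction complex and a feedback target of Wnt signalling, had an FPKM of 3.42 and 2.97 in control, 7.71, 12.0, 3.09 and 2.48 in SAP, and 3.28, 0.54, 1.19 and 1.94 in JZL184. SAP samples 1 and 2 stood above all others, and 3 of 4 JZL184 samples lay below both controls. Rnf43, a ubiquitin ligase that removes Frizzled receptors and is itself a Wnt target, had 0.715 and 0.50 in control, 2.02, 2.37, 0.75 and 0.40 in SAP, and 0.60, 0.35, 0.77 and 0.76 in JZL184. As with Axin2 and Olfm4, the high values were those of SAP 1 and 2, and the other SAP samples overlapped with control.

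Because Axin2 is the classical direct target of TCF/LEF factors, the promoters of the genes were searched for the letters CTTTGAT and CTTTGAA on both strands. RefSeq matched 10 of 10 genes by symbol, and promoter sequences (250 bases before to 50 bases after the gene start, build GRCr8, whereas the deposited values were made on mRatBN7.2) were at hand for 5: Olfm4, Ascl2, Axin2, Lrig1 and Rnf43. Only that of Axin2 held a match, and it held 2, CTTTGAA starting at -232 and CTTTGAT starting at -132 from the gene start. Among all 33469 rat promoters of this length 8.73% held at least 1 match and 0.571% held 2 or more, and among the 75 other genes of the pathway lists with a promoter 12% held at least 1. Shown are Axin2 and, for comparison, Olfm4 and Ascl2, which had no match in this window; matches are in capitals. The Axin2 window is chr10:94398535-94398834 on the plus strand, that of Olfm4 chr15:61815981-61816280 on the plus strand and that of Ascl2 chr1:207580807-207581106 on the minus strand.
Axin2: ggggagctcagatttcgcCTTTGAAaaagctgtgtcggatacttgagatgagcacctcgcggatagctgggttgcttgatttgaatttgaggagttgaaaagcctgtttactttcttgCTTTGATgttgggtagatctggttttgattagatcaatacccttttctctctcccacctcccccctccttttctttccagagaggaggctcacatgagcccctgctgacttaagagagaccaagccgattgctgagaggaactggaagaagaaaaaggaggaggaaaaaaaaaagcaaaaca
Olfm4: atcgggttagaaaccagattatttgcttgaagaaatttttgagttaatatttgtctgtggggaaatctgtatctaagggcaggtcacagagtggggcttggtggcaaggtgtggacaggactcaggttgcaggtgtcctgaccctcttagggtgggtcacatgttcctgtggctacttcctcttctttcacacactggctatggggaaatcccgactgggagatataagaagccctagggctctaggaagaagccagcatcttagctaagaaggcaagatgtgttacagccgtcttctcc
Ascl2: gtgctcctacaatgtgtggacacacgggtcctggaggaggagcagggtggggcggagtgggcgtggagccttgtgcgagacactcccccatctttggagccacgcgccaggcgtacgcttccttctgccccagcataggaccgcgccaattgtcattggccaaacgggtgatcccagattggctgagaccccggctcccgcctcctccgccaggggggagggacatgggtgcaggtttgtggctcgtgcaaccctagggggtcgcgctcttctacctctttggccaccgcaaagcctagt
The genes with the same SAP pattern thus differed in this feature: Axin2 held matches, and Olfm4 and Rnf43 held none in the window searched. A match of letters describes the sequence and does not show binding.

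The remaining genes had their highest means in JZL184. Sox9, a transcription factor of stem, progenitor and Paneth cells, had an FPKM of 3.49 and 2.87 in control, 4.49, 7.27, 2.52 and 4.50 in SAP, and 9.81, 5.96, 4.86 and 7.05 in JZL184. All JZL184 samples were above both controls, and SAP overlapped with both groups. Lrig1, a brake on ErbB receptor signalling that marks stem cells, had 3.64 and 6.22 in control, 10.2, 8.50, 5.10 and 5.77 in SAP, and 10.5, 5.91, 12.7 and 8.80 in JZL184. The Lrig1 values overlapped in every comparison, and JZL184 sample 3, which was low for Olfm4 and Ascl2, was the highest.

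Clu, the secreted chaperone clusterin, had an FPKM of 48.6 and 38.0 in control, 54.4, 45.1, 58.1 and 49.3 in SAP, and 82.1, 62.5, 81.8 and 55.3 in JZL184. Every JZL184 sample was above both controls, and only the lowest JZL184 sample lay within the SAP range. The means were 43.3 ± 7.5 (SD, n = 2), 51.7 ± 5.72 (SD, n = 4) and 70.4 ± 13.6 (SD, n = 4). Clusterin is also made by cells outside the epithelium.

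**Figure D2:**
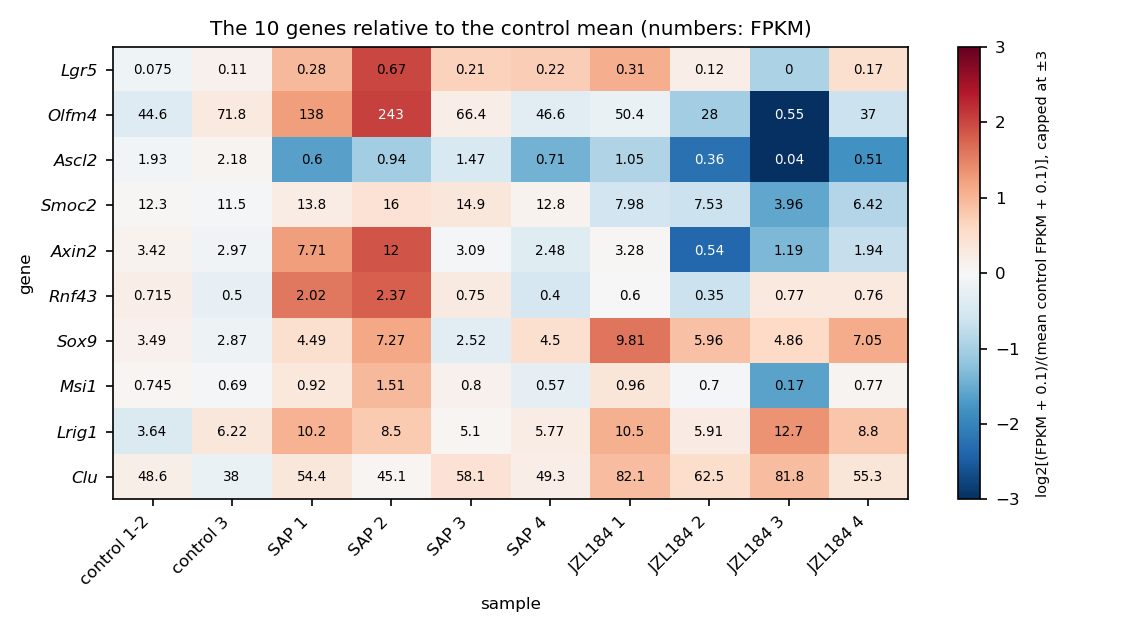
Each cell gives the FPKM of a gene (row) in a sample (column), coloured by the log2 ratio to the control mean after adding 0.1 to both. SAP 1 and 2 are red for most genes, with 5 and 6 of 10 above 2 times the control mean (share of all genes not computed). JZL184 3 is blue for Olfm4, Ascl2, Axin2 and Msi1 but red for Lrig1 and Clu.

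By the mean chi-square over genes, the SAP libraries fell into 2 pairs. Of the 10 genes, Lgr5, Olfm4, Axin2, Rnf43, Msi1 and Lrig1 were higher in both SAP 1 and 2 than in SAP 3 and 4. Sox9, Ascl2, Smoc2 and Clu overlapped between these pairs. The chi-square per gene was 85.5 for SAP 1 and 2, 99.1 for SAP 3 and 4, and 337 to 563 between these pairs. In SAP 1 and SAP 2, 5 and 6 of the 10 genes had an FPKM above 2 times the control mean, whereas in SAP 3 and SAP 4 it was 1 gene each, in both cases Lgr5. In the JZL184 group, library 3 had 6 of 10 genes below 0.5 times the control mean, library 2 had 3, library 4 had 1 and library 1 had none. JZL184 library 1 instead had 3 genes above 2 times the control mean. The share of all genes beyond these limits was not computed for any library.

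The first comparison asked what SAP does to these genes. Compared with control, 9 of the 10 genes had a positive and 1 a negative log2 fold change, with a median of 0.39 against 0.06 over all 16029 genes tested. Without SAP 1 and 2, 5 were positive and 5 negative, with a median of -0.0093 against 0.032 over all genes. edgeR called none of them (adjusted p under 0.05 together with a change of more than 2-fold either way), and 0.0% of all genes. Before adjustment, p was under 0.05 for Lgr5 on the higher side, against 5.69% of all genes, and for Ascl2 on the lower side, against 3.4%, or 2 of 10 genes against 9.09%. With control libraries 1 and 2 merged, DESeq2 and limma-voom called none of the 10 genes, against 0.894% and 0.0873% of all genes. With 3 separate control libraries, DESeq2 called Lgr5 (higher) and Ascl2 (lower), against 1434 of all 23265 genes. The study, which used DESeq2, reported the same number of 1434 differentially expressed genes for SAP and control. The FPKM of the groups did not overlap for Lgr5 and Smoc2 (Smoc2 only with control libraries 1 and 2 averaged), which were higher in SAP, against 13.4% of all genes. The same held for Ascl2, which was lower, against 8.65%. In either direction this was 3 of 10 genes, against 22.0%.

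The fold change of Lgr5 was 1.72 ± 0.61 on the log2 scale (SE, edgeR adjusted p = 0.459), and 1.25 without SAP 2. That of Ascl2 was -1.31 ± 0.44 (SE, edgeR adjusted p = 0.459). Rnf43 (0.94 ± 0.67), Olfm4 (0.88 ± 0.62) and Axin2 (0.76 ± 0.60) had positive values with large standard errors. Without SAP 1 and 2 the values of Rnf43, Olfm4 and Axin2 were -0.18, -0.11 and -0.27, so that their sign rested on these 2 libraries. The log2 fold changes of Lrig1 (0.42), Sox9 (0.37), Msi1 (0.20), Smoc2 (0.10) and Clu (0.08) were less than 2 standard errors from 0. With 4 against 2 samples, the smallest p that the exact permutation test allows is 0.0667, which Ascl2 reached (two-sided exact permutation test of the FPKM, p = 0.0667).

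**Figure D3:**
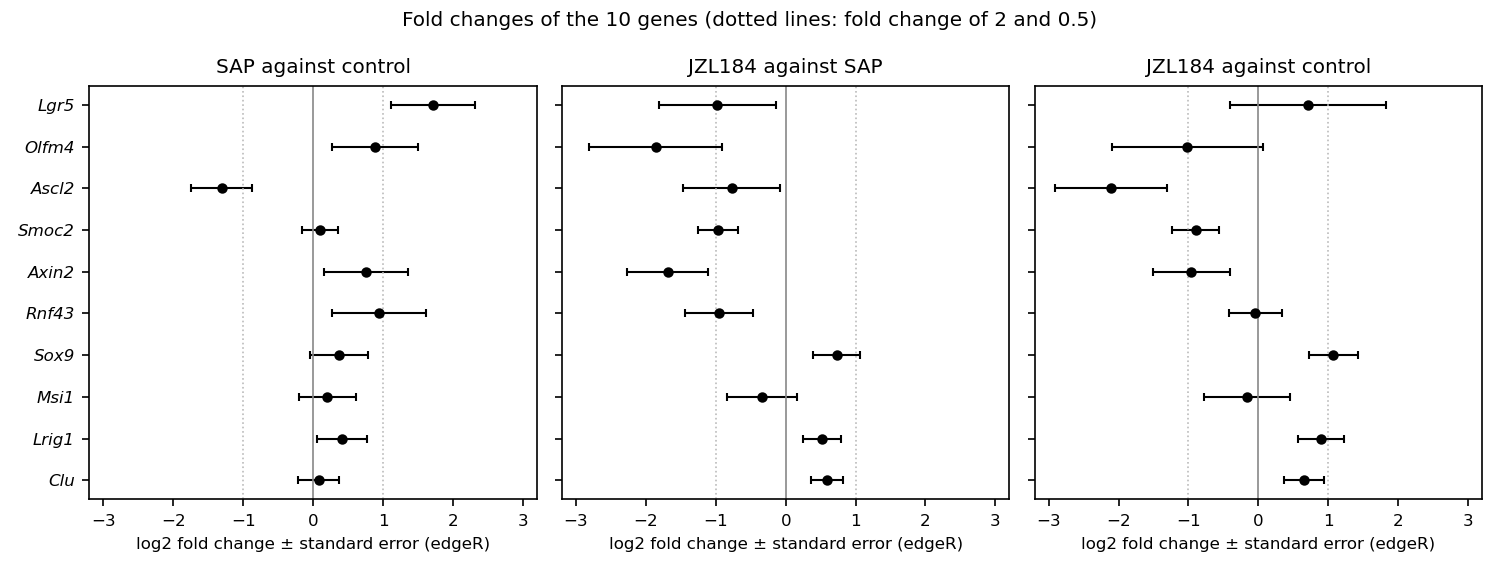
log2 fold change of each of the 10 genes (x axis, points) with its standard error (bars) from edgeR in the comparisons of SAP with control, JZL184 with SAP and JZL184 with control; dotted lines mark a fold change of 2 and 0.5. edgeR called no gene in any panel, and Ascl2 is negative in each.

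The second comparison asked what JZL184 does in rats with SAP. Compared with SAP, 7 of the 10 genes were lower and 3 higher in JZL184, with a median log2 fold change of -0.86 against -0.05 over 15308 genes. edgeR called none of the 10 genes, and 0.0% of all genes. Before adjustment, p was under 0.05 for Clu on the higher side, against 10.3% of all genes, and for Smoc2 and Axin2 on the lower side, against 11.1%, or 3 of 10 genes against 21.3%. limma-voom called none of the 10 genes, against 4.57% of all genes, and DESeq2 called 1, Axin2, against 5.35%.

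Smoc2 had a log2 fold change of -0.97 ± 0.28 (SE, edgeR adjusted p = 0.123, DESeq2 adjusted p = 0.0381) and was the only gene whose FPKM did not overlap between the groups, against 6.53% of all genes in this direction and 11.2% in either (two-sided exact permutation test, p = 0.0286, the smallest this design allows, not adjusted over the 10 genes). It was -0.78 without JZL184 1 and 3. The fibroblast markers, whose 6 genes all had negative fold changes here (median -1.39), moved in the same direction, with a summed FPKM of 62.7 to 147 in SAP and 31.0 to 61.1 in JZL184. Their part in the Smoc2 difference was not tested.

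Axin2 had a log2 fold change of -1.69 ± 0.58 (SE, edgeR adjusted p = 0.161, DESeq2 adjusted p = 0.0457), which was -0.66 without SAP 1 and 2. Olfm4 had -1.86 ± 0.94 (SE, edgeR adjusted p = 0.274), and -0.89 without SAP 1 and 2 or -1.45 without JZL184 3. Lgr5 (-0.98), Rnf43 (-0.95), Ascl2 (-0.78) and Msi1 (-0.34) were also on the negative side. Without JZL184 3, Lgr5 was at -0.56, Ascl2 at -0.39 and Msi1 at -0.0085, and without SAP 2 Lgr5 was at -0.50, Msi1 at -0.073 and Rnf43 at -0.59. Without SAP 1 and 2, Rnf43 was at 0.15. The positive values were those of Sox9 (0.73 ± 0.34), Clu (0.59 ± 0.23) and Lrig1 (0.52 ± 0.27), with edgeR adjusted p-values of 0.243, 0.188 and 0.293.

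In the third comparison, JZL184 rats were set against control rats, with the same control samples as above. Of the 10 genes, 4 were higher and 6 lower, with a median log2 fold change of -0.10 against 0.08 over 15916 genes. edgeR called none of them, against 2.16% of all genes. Before adjustment, p was under 0.05 for Sox9 and Lrig1 on the higher side, against 13.8% of all genes, and for Ascl2 and Smoc2 on the lower side, against 12.5%, or 4 of 10 genes against 26.3%. DESeq2 called 1 of 10 (Ascl2), against 8.07% of all genes, and limma-voom called 2 of 10 (Ascl2 and Sox9), against 18.3%. The groups did not overlap for Sox9 and Clu, which were higher in JZL184, against 18.5% of all genes, and for Ascl2 and Smoc2, which were lower, against 18.1%. In either direction this was 4 of 10 genes, against 36.6%.

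Ascl2 had a log2 fold change of -2.10 ± 0.80 (SE, edgeR adjusted p = 0.147, DESeq2 adjusted p = 0.0483), which was -1.71 without JZL184 3. Sox9 had 1.07 ± 0.35 (SE, edgeR adjusted p = 0.107) and 1.23 without JZL184 3. Without JZL184 1 and 3, left out after the data were seen, edgeR called both, with Ascl2 at -2.18 and Sox9 at 1.09. In that setting edgeR called 2967 of all 15307 genes, against 343 of all 15916 with every sample kept. Lrig1 (0.90 ± 0.34), Smoc2 (-0.90 ± 0.34) and Clu (0.65 ± 0.29) had edgeR adjusted p-values of 0.143, 0.147 and 0.193. The values of Olfm4 (-1.02), Axin2 (-0.96), Lgr5 (0.71), Msi1 (-0.16) and Rnf43 (-0.04) were all less than 2 standard errors from 0. Without JZL184 3, Olfm4 was at -0.61, Lgr5 at 1.13 and Msi1 at 0.17, and without JZL184 1 Lgr5 was at 0.16.

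Levels of the epithelium markers differed between the groups, and not all in 1 direction. The summed FPKM of 8 epithelium markers was 17899 and 21874 in control, 8360 to 14223 in SAP and 8029 to 9893 in JZL184, and SAP did not overlap with control. The keratins Krt20 (means of 7157 in control, 3624 in SAP and 2420 in JZL184), Krt8 (3862, 1763 and 1431) and Krt19 (4211, 2178 and 1436) had this order, whereas Cdh1, E-cadherin, had means of 111.6 in control, 143.7 in SAP and 172.4 in JZL184, with both control samples below all others. Of the 8 markers, 7 had negative fold changes in SAP against control and 4 in JZL184 against SAP, and edgeR called only Krt19, lower in JZL184 against control (-1.59). The summed FPKM of the Paneth cell markers was 10189 and 10953 in control, 2980 to 12099 in SAP and 437 to 7144 in JZL184, with Defa5 below 0.5 in all samples. Relative to the epithelium markers as a list, as log2 CPM, SAP was above control without overlap for 5 genes, Lgr5 (by 2.35), Lrig1 (1.21), Sox9 (1.1), Smoc2 (0.90) and Clu (0.89), and Ascl2 (-0.59) overlapped. The list itself had a median log2 fold change of -0.84 in SAP and -1.16 in JZL184 against control. This scale therefore moved the log2 CPM difference from control of every gene up in both. Set against edgeR, it was still lower in JZL184 against control for Lgr5 (0.46 against 0.71) and Olfm4 (-1.24 against -1.02). The share of all genes without overlap on this scale was not computed. On that scale JZL184 was below SAP for Smoc2 (-0.95) and above it for Clu (0.68), each without overlap (two-sided exact permutation tests, p = 0.0286 for both). Against control, JZL184 was higher without overlap for Sox9 (1.96), Lrig1 (1.82) and Clu (1.57), of which Lrig1 overlapped in FPKM, and Ascl2 (-1.81) and Smoc2 (-0.04) overlapped on that scale. The part of the epithelium markers in the differences of the FPKM was not tested further.

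The genes of gut position moved with part of the same pattern. JZL184 3, the sample with the lowest Olfm4, Ascl2, Smoc2 and Msi1 and with no Lgr5 read, was the one with low Fabp6 and high Car1 and Hoxd10. Its summed FPKM of 7 enterocyte markers was 572, against 9348 to 39587 in the other samples. JZL184 3 was not the lowest for Axin2 (JZL184 2), Rnf43 (JZL184 2) or Sox9 (SAP 3). SAP 2, the highest for Lgr5, Olfm4, Axin2 and Rnf43, was the SAP sample with Gata4 (3.65, against at most 0.05 in the other SAP samples). JZL184 1, with more Gata4 (7.73), had Lgr5 at 0.31, Olfm4 at 50.4, Axin2 at 3.28 and Rnf43 at 0.60. SAP 1, with Gata4 at 0.02, had Lgr5 at 0.28, Olfm4 at 138, Axin2 at 7.71 and Rnf43 at 2.02. The part of gut position in these values was not tested.

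**Figure D4:**
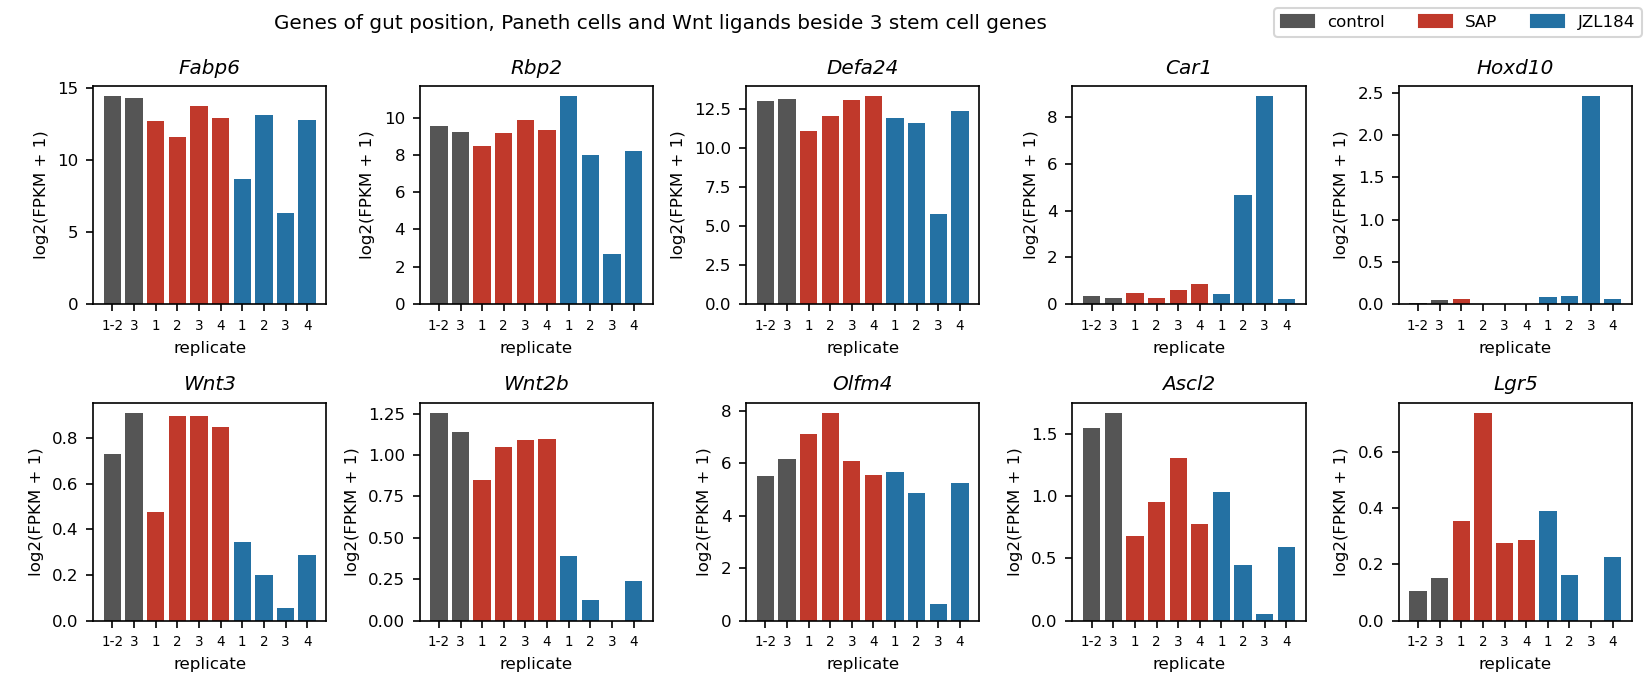
log2(FPKM + 1) (y axis, scale set per panel) of genes of gut position (Fabp6, Rbp2, Car1, Hoxd10), the Paneth cell defensin Defa24, the Wnt ligands Wnt3 and Wnt2b and 3 stem cell genes, one bar per sample, coloured by group. JZL184 3 is lowest for Fabp6, Rbp2, Defa24, Olfm4, Ascl2 and Lgr5 and highest for Car1 and Hoxd10, and all JZL184 samples are below all other samples for Wnt3 and Wnt2b.

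Around the 10 genes, 105 further genes of the stem cell, Wnt, niche, regenerative and proliferation programmes were followed. edgeR called none of the 97 tested between SAP and control and none of the 95 tested between JZL184 and SAP, where 0.0% of all genes were called in each. Before adjustment, 12 of the 97 and 18 of the 95 had a p under 0.05, against 9.09% and 21.3% of all genes. Between JZL184 and control edgeR called 3 of 95, or 2 higher and 1 lower, against 2.16% of all genes. There, p before adjustment was under 0.05 for 19 on the higher side, against 13.8% of all genes, and for 14 on the lower side, against 12.5%. DESeq2 called 2, 7 and 14 of these genes in the same order of comparisons, against 0.894%, 5.35% and 8.07% of all genes. limma-voom called 0, 6 and 21, against 0.0873%, 4.57% and 18.3%.

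The genes called by edgeR were Dll1, Dll4 and Spp1. Dll1, a Notch ligand of secretory progenitors, rose by 2.07 ± 0.38 on the log2 scale in JZL184 against control (SE, edgeR adjusted p = 0.0368). Its FPKM was 0.955 and 2.11 in control, 3.03, 2.24, 1.96 and 2.39 in SAP, and 6.60, 5.29, 6.84 and 7.41 in JZL184. All JZL184 samples were above all others, and against SAP the value was 1.60 ± 0.24 (SE, edgeR adjusted p = 0.0604, DESeq2 adjusted p = 6.79e-07).

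Dll4, another Notch ligand, fell by 1.75 ± 0.35 (log2, SE, edgeR adjusted p = 0.0468) in JZL184 against control, from an FPKM of 9.62 and 11.02 to 4.90, 2.53, 1.99 and 3.18. JZL184 did not overlap with control. SAP overlapped with both (4.17 to 11.2), and its highest sample was above both controls. Spp1, the secreted phosphoprotein osteopontin, listed with the regenerative genes but also made by macrophages, rose by 1.92 ± 0.35 (log2, SE, edgeR adjusted p = 0.0385), from 1.40 and 1.26 to 4.51, 4.91, 5.12 and 6.13. In SAP its FPKM was 4, 4.64, 18.2 and 7.48, likewise above control in every sample, with a log2 fold change of 2.54 ± 0.74 (SE, edgeR adjusted p = 0.459). The macrophage markers Cd163 (2.99) and Mrc1 (2.34) were also called higher by edgeR in JZL184 against control, 2 of the 6 markers, of which 3 had positive and 3 negative fold changes. The sum of the 6 was 999.7 and 1210 in control, 664 to 2234 in SAP and 215 to 1136 in JZL184. Most of that sum was Lyz2 (989 and 1202 in control, 643 to 2191 in SAP, 197 to 1120 in JZL184), also listed for Paneth cells. Gene by gene, 6 of 6 had positive fold changes in SAP against control (median 1.43). In JZL184 against SAP, 1 was positive and 5 were negative. Their part in the Spp1 difference was not tested. In 1 fit of all 3 groups, Dll1 and Areg were called and Dll4 and Spp1 were not. No pathway gene was called when either control sample, JZL184 2 or JZL184 4 was left out.

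Among the secreted activators of the pathway, the ligands Wnt2b and Wnt3 were low in JZL184. Wnt2b, made by stromal cells, had an FPKM of 1.39 and 1.20 in control, 0.80 to 1.14 in SAP, and 0.31, 0.09, 0 and 0.18 in JZL184. Wnt3, the ligand of Paneth cells, had 0.66 and 0.88 in control, 0.39 to 0.86 in SAP, and 0.27, 0.15, 0.04 and 0.22 in JZL184. For both, every JZL184 sample lay below every other sample, with log2 fold changes against SAP of -2.67 ± 0.74 and -1.95 ± 0.56 (SE, edgeR adjusted p = 0.115 and 0.122) and, from DESeq2, an adjusted p of 0.00259 for Wnt2b. Wnt5a had -1.81 ± 0.45 against SAP (SE, edgeR adjusted p = 0.0956). Rspo3, an R-spondin of stromal cells and a ligand of the Lgr5 family, was on the other side, with 1.47 ± 0.49 in SAP and 1.98 ± 0.46 in JZL184 against control (SE, edgeR adjusted p = 0.459 and 0.0631).

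The receptors had mostly positive fold changes in SAP against control, 10 of 12 (median 0.69 against 0.06 over all genes), led by Fzd1 (1.23) and the Lgr5 homologue Lgr4 (1.97). Without SAP 1 and 2, 6 of 12 were positive (median 0.029), with Fzd1 at 0.76 and Lgr4 at 0.24. Lgr4 had an FPKM of 1.32 and 1.79 in control, 10.7, 13.8, 2.01 and 1.83 in SAP, and 3.66, 2.96, 3.38 and 3.90 in JZL184. Its high values in SAP were again those of samples 1 and 2, and all JZL184 samples were above control. Of the antagonists, Sfrp2 (3.01) and Nkd2 (-0.85) had the smallest p in SAP against control (edgeR adjusted p = 0.459 for both), and the beta-catenin core was led by Apc (1.48) and Tcf7l2 (1.43), which were at 0.45 and 0.24 without SAP 1 and 2. In JZL184 against control, Gsk3b (1.18) and Apc (1.06) had edgeR adjusted p-values of 0.0756 and 0.114, and Nkd2 (-0.93) and Dkk3 (0.71) of 0.0945 and 0.193. In JZL184 against SAP, Fzd5 (-1.30), Bcl9l (-1.68) and Btrc (-0.67) led their lists, and edgeR, DESeq2 and limma-voom called none of them.

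Of 6 other Wnt targets tested, 5 had negative and 1 positive fold changes in JZL184 against SAP, and 4 and 2 in JZL184 against control, where Myc was at 0.80. edgeR called none of them, and DESeq2 and limma-voom both called Ccnd1 in both comparisons and Ephb3 against control. Ccnd1, cyclin D1, had a log2 fold change of -1.23 ± 0.33 against SAP and -1.36 ± 0.37 against control (SE, edgeR adjusted p = 0.109 and 0.0807), and Ephb3, a receptor that positions crypt cells, -1.11 ± 0.32 against control (SE, edgeR adjusted p = 0.0913). The 8 proliferation genes had negative fold changes throughout in JZL184, 8 of 8 against SAP (median -0.59) and 8 of 8 against control (median -0.84), and 3 positive and 5 negative ones in SAP against control, where 8 of 8 were negative without SAP 1 and 2. edgeR called no proliferation gene, DESeq2 called Top2a against SAP, and limma-voom called Ccna2, Mcm5 and Top2a against control. The smallest p from edgeR were those of Top2a against SAP (-1.47 ± 0.48, SE, edgeR adjusted p = 0.146) and Ccnb1 against control (-0.84 ± 0.26, SE, edgeR adjusted p = 0.101).

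Of the 14 niche and Notch genes, 8 had positive and 6 negative fold changes in SAP against control (log2, from -1.10 to 3.09), 8 and 6 in JZL184 against SAP, and 9 and 5 in JZL184 against control (from -1.75 to 3.71). Grem1, a BMP antagonist of the crypt stroma, had an FPKM of 2.83 and 4.71 in control, 40.1, 22.6, 11.4 and 8.53 in SAP, and 15.2, 6.12, 1.46 and 7.79 in JZL184. All SAP samples were above control, with a log2 fold change of 2.26 ± 0.64 (SE, edgeR adjusted p = 0.459, DESeq2 adjusted p = 0.0225) that was 1.34 without SAP 1 and 2, and JZL184 overlapped with both other groups. Areg, an epidermal growth factor receptor ligand, had 4.72 and 4.70 in control, 7.36 to 14.6 in SAP, and 9.02, 70.6, 100.4 and 70.1 in JZL184. Of the JZL184 samples only sample 1 lay within the SAP range, and the log2 fold change against SAP was 2.81 ± 0.63 (SE, edgeR adjusted p = 0.0856). Egf (1.60) in SAP against control, and Ereg (3.26) in JZL184 against control, had edgeR adjusted p-values of 0.459 and 0.0587. Of further stem cell markers, Slc12a2 (1.56 in SAP and 0.89 in JZL184 against control) and Hopx (-0.95 in JZL184 against control) had the smallest p, and edgeR called none of these markers in any comparison. limma-voom called Phlda1 and Cdca7 in JZL184 against control, and DESeq2 with 3 separate control libraries called Slc12a2 in SAP against control. Phlda1 (0.84) and Prom1 (1.54) led these markers in JZL184 against SAP, and Anxa1 (0.88) and Il33 (-1.60), which limma-voom called, the regenerative genes. Also among the 2 genes of smallest p in their list, and not called by edgeR, were Wnt9a (0.63), Ephb2 (-0.45), Ephb3 (-0.73), Bmi1 (1.17), Mcm5 (-0.46), Cdk1 (-0.45) and Ccn2 (-0.92) in SAP against control. In JZL184 against SAP these were Sfrp2 (-1.23), Nkd1 (-0.46), Lrp6 (-0.83), Myc (0.40) and Mcm2 (-0.85), and in JZL184 against control Lgr4 (1.13), Fzd4 (1.53), Mcm5 (-0.97) and Tead1 (0.91). Of these, DESeq2 called Lgr4 and limma-voom called Lgr4, Fzd4 and Mcm5, each in JZL184 against control.

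**Figure D5:**
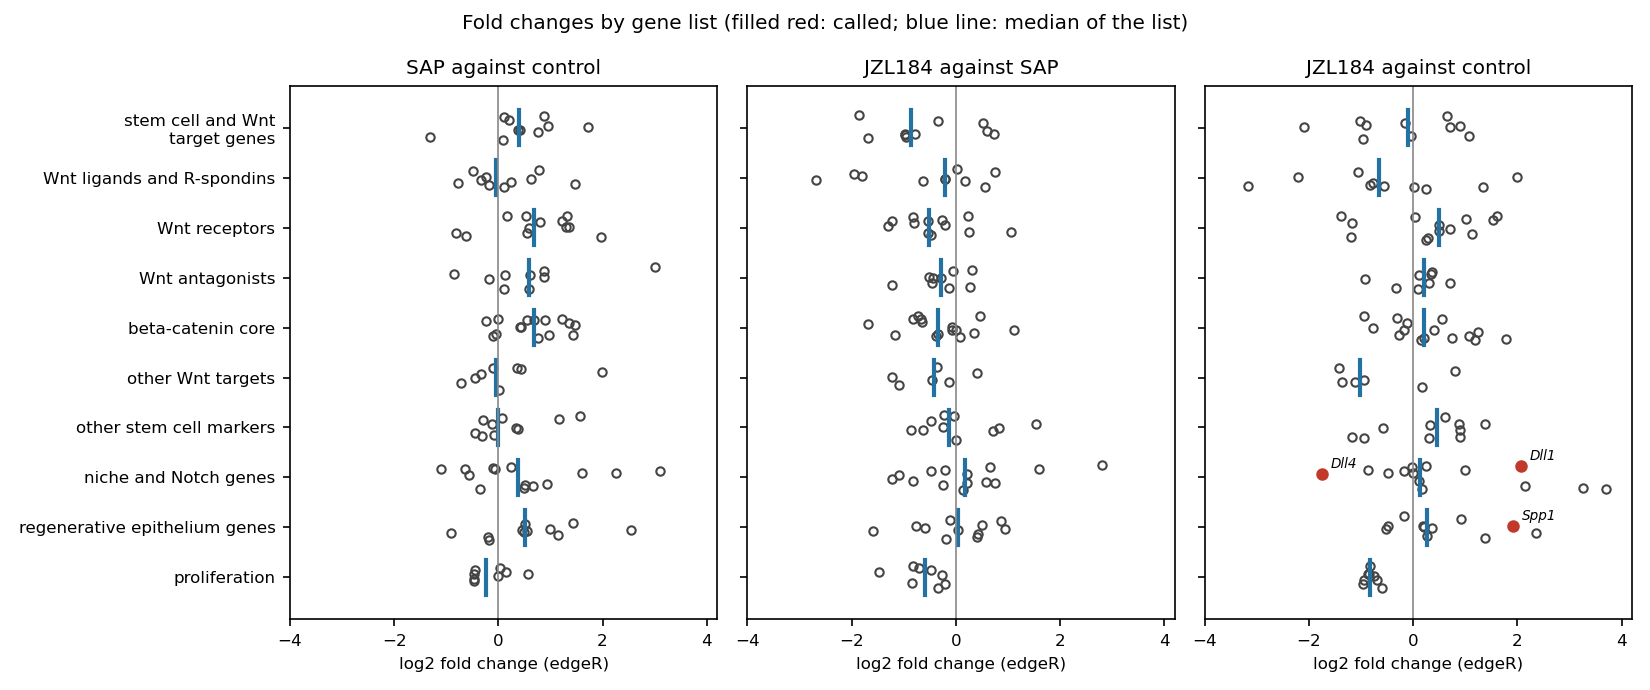
log2 fold changes from edgeR (x axis) of the 10 genes (top row) and of the tested genes of 9 pathway lists (rows) in the comparisons of SAP with control, JZL184 with SAP and JZL184 with control; each circle is a gene, filled red where called by edgeR, and the blue line is the median of the list. The only genes called by edgeR are Dll1, Dll4 and Spp1 in JZL184 against control, and the proliferation genes lie left of 0 in both JZL184 panels.

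The genes whose profile over the 10 samples was closest to that of Lgr5, Olfm4 and Clu were sought among 11089 genes with a mean FPKM of at least 1, by the root mean square difference of scaled log2(FPKM + 1). Closest to Olfm4 were Dpp4 (0.20), Smpd3, Slc7a9, Enpep and Far2. Of these, Dpp4 and Enpep encode peptidases and Slc7a9 an amino acid transporter of the enterocyte brush border. Dpp4 had an FPKM of 56.1 and 65.8 in control, 86.3, 107, 57.0 and 61.8 in SAP, and 53.1, 27.1, 4.82 and 49.6 in JZL184. Like Olfm4, it was highest in SAP 1 and 2 and lowest in JZL184 3.

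Closest to Lgr5 were Dennd11 (0.38), Fbxo9, Hsd17b4, Vmp1 and Nqo2, of which Hsd17b4, a peroxisomal enzyme, had 109 in SAP 2 and 9.36 in control 1-2. Closest to Clu were Il6 (0.43), Atpsckmt, Itga5, Rbp7 and Aurkc. Il6, the inflammatory cytokine interleukin 6, had an FPKM of 0 and 0.21 in control, 0.43 to 2.54 in SAP, and 10.4, 3.38, 9.24 and 3.97 in JZL184. Its JZL184 samples were all above the SAP samples, and the likeness is a description over 10 samples, in each of which all genes share library and depth.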

How the data were processed

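The deposited files hold, per gene and library, a read count and an FPKM. The authors aligned trimmed reads to mRatBN7.2 with HISAT2 and counted reads per gene; the count was deposited without normalization, and the FPKM, calculated by the authors, is scaled to gene length and library size with 2 decimals. Which tool counted the reads is not given in the sources used here. Members, gene lists and tests were chosen with earlier results of these data known. Control libraries 1 and 2 were merged (reads summed, FPKM averaged; chi-square over genes with 20 or more reads).

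Groups were compared in pairs by edgeR 4.0.16 and its quasi-likelihood F test (R 4.3.3, TMM, filterByExpr with a minimum count of 10), adjusted by Benjamini-Hochberg over all genes tested. A called gene had an adjusted p under 0.05 together with a fold change over 2 or under 0.5. DESeq2 1.42.0, limma-voom (limma 3.58.1) with sample quality weights, no filter, other normalization, gene length offsets, 3 separate control libraries, replicate blocks and left-out libraries were alternatives. On simulated counts with 200 genes changed 4-fold, edgeR recovered 24.5% of them for SAP against control (15704 genes) and 59.5% for JZL184 against SAP (15102 genes). For JZL184 against control it recovered 50.5% (15604 genes). The changed genes were drawn only from genes above a minimum mean CPM, so these rates do not cover genes of few reads such as Lgr5. FPKM were compared with two-sided exact permutation tests. The labels do not state that each library is a separate rat, so p-values measure the spread between libraries, which may be technical. All 10 genes are named; of the pathway lists, the called genes and, per list and comparison, the 2 with the smallest p are named, besides Wnt3 in JZL184 and Ereg, chosen after their values were seen. Tables and plots used Python 3.11.15, numpy 2.4.6, pandas 2.3.3 and matplotlib 3.10.9.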

Additional observations from a re-analysis of the deposited data

Results flagged for a closer look

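For Lgr5, SAP sample 2 stood far from the other SAP samples. Its FPKM was 0.67, and the gap to the next sample was 0.848 of the range of the group, above the 95% critical value of Dixon's test for 4 samples (0.829). Of 20 groups of 4 samples tested, this was the only one to pass, and chance passes about 1 in 20. SAP sample 2 was also the sample with Xist, and the log2 fold change of Lgr5 in SAP against control was 1.25 without it.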

How the results depend on the processing

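Of 546 alternative log2 fold changes of the 10 genes in the 3 comparisons (30 results), 517 kept their direction and their side of the threshold, 11 passed the threshold anew and 18 had the other sign. Sign changes in SAP against control were Olfm4 (-0.11), Axin2 (-0.27), Msi1 (-0.15) and Rnf43 (-0.18) without SAP 1 and 2, Msi1 (-0.071) with gene length offsets, Sox9 (-0.041) and Msi1 (-0.030) with the replicate block, length offsets and 3 separate control libraries, and Clu (-0.0017) with the replicate block and 3 separate control libraries. Leaving out 1 library gave -0.012 to 0.22 for Smoc2, -0.055 to 0.35 for Msi1 and -0.14 to 0.35 for Clu. In JZL184 against SAP they were Msi1 (0.0021) and Rnf43 (0.15) without SAP 1 and 2. In JZL184 against control they were Msi1 (0.10 without JZL184 1 and 3, and -0.35 to 0.17 with 1 library left out) and Rnf43 (0.018 with limma-voom, and -0.33 to 0.30 with 1 library left out). The cause was not tested.

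Of the 10 genes, DESeq2 called 1 in JZL184 against SAP and 1 in JZL184 against control, against 5.35% and 8.07% of all genes. In JZL184 against control, limma-voom called 2 (18.3% of all genes) and DESeq2 with 3 separate control libraries 1 (3482 of all 23508 genes). With these libraries edgeR called 2 (2800 of all 15427 genes). Without JZL184 1 and 3 (chosen after seeing the data) edgeR called 2 (2967 of all 15307 genes). In SAP against control, DESeq2 with 3 separate control libraries called 2, Lgr5 and Ascl2, against 1434 of all 23265 genes. Of the pathway genes in SAP against control, DESeq2 called 2 (0.894% of all genes) and DESeq2 with 3 separate control libraries 12 (1434 of all 23265). Without SAP 1 and 2, edgeR called 1 (74 of all 15362). In JZL184 against SAP, DESeq2 called 7 (5.35% of all genes) and limma-voom 6 (4.57%). The fit of all 3 groups called 2 there (207 of all 16570 genes) and length offsets 1 (31 of all 15308). Leaving out 1 library gave 0 to 5, the highest without JZL184 1 (655 of all 15540 genes). The fit of all 3 groups called 2 in JZL184 against control, Dll1 and Areg, against 369 of all 16570 genes. In JZL184 against control, no filter on low counts gave 9 (929 of all 23630 genes), DESeq2 14 (8.07%) and limma-voom 21 (18.3%). With 3 separate control libraries, edgeR gave 20 (2800 of all 15427 genes) and DESeq2 25 (3482 of all 23508). Leaving out JZL184 1 and 3 gave 25 (2967 of all 15307 genes). Leaving out 1 library gave 0 (either control sample, JZL184 2 or JZL184 4) to 18 (JZL184 1), and 9 without JZL184 3. The lone control sample was then assumed to vary like the JZL184 samples. Of all genes, edgeR called 1867 of 15623 without JZL184 1 and 860 of 15762 without JZL184 3. Counts of genes whose FPKM did not overlap (3 in SAP against control and 1 in JZL184 against SAP) were 5 and 2 relative to the epithelium markers, and 3 to 5 and 1 to 5 with 1 library left out. The share of all genes was not computed for these alternatives.

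The replicate numbers of the labels did not pair the samples: the correlations of same-numbered samples were 0.12, -0.45, -0.01 and -0.10 in JZL184 against SAP. The fits with and without the replicate block both called 0 of the 10 genes there, so these counts cannot show whether the samples are paired. With 3 separate control libraries, the replicate block gave 9 pathway genes in JZL184 against control, and 8 with length offsets too. Of all 15427 genes, these settings called 1488 and 1193. With 24.5% of simulated 4-fold changes recovered in SAP against control, this design misses most changes of that size among genes above the minimum mean CPM of the simulation. Lgr5, at 0 to 96 reads, lay below that minimum and is limited further by depth.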
